A study of Bos taurus with 9 samples.

Results

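Collagen chains and the enzymes and chaperones that modify them were examined in cultured bovine uterine gland fragments. Members were taken by gene name alone: every collagen chain gene other than COL17A1, the lysyl oxidase genes, the PLOD lysyl hydroxylases, the P4HA catalytic subunits, and SERPINH1, P3H1 (also called LEPRE1) and CRTAP. This gave 58 of the 20679 genes in the deposited table, of which 43 encode chains and 15 fall under the enzyme and chaperone names. LOXHD1 was among the 15 because its name begins with LOX; it is not a lysyl oxidase, and it had no count in any library.

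Gland fragments isolated from cow endometrium were embedded in Matrigel, a growth factor-reduced basement membrane extract, and kept in 3D culture for 5 days. The CYST group received no epidermal growth factor (EGF) and formed hollow spheres, the MAT group received EGF in Matrigel alone and formed uterine gland-like (UG-LIKE) structures, and the MAT + COL group received EGF in Matrigel mixed with bovine type I collagen. All 3 groups, with 3 libraries each, shared a medium with bovine serum albumin, insulin, transferrin, sodium selenite and ascorbic acid. The labels describe the cells as epithelial cells of the uterine gland, and they do not say whether libraries with the same replicate number came from 1 uterus, so p-values measure the spread between these libraries.

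Collagens are built from 3 chains that wind into a triple helix in the endoplasmic reticulum. Prolyl 4-hydroxylases, which need ascorbic acid, stabilise the helix, lysyl hydroxylases prepare sites for sugars and cross-links, and a complex of P3H1, CRTAP and PPIB modifies selected prolines and helps the chains fold. SERPINH1 (HSP47) escorts folded procollagen, and lysyl oxidases later cross-link the fibres outside the cell. In endometrium, fibrillar collagens I and III are made mainly by stromal cells, and collagen IV is part of the basement membrane under the glands. The collagen I supplied to the MAT + COL cultures was protein and adds no RNA to these counts.

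Library depth ranged from 6568968 counts (MAT replicate 1) to 17948600 counts (MAT + COL replicate 2). Epithelial markers were high in all 9 libraries, with EPCAM between 395 and 764 TPM, the deposited level corrected for depth and gene length, whereas FOXA2, a gland transcription factor, lay between 1.31 and 12.4 TPM. Stromal fibroblast markers were also present: the summed TPM of 7 genes (PDGFRA, PDGFRB, DCN, LUM, THY1, FBN1 and VIM) ran from 853 in MAT replicate 2 to 3279.8 in CYST replicate 3. VIM alone gave 452 TPM of the sum in MAT replicate 2 and 312 TPM in CYST replicate 3. The 5 immune markers (PTPRC, CD3E, CD68, CSF1R and LYZ) summed to 3.08 to 14.4 TPM, most of it from the macrophage marker CD68 (2.21 to 10.2 TPM), and the 5 endothelial markers together reached 27.5 TPM at most. In such bulk libraries, fewer cells of a type and less RNA per cell cannot be told apart.

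Of the 58 genes, 52 had a count in at least 1 library, 33 had a mean TPM above 1, and 24 were above 1 TPM in all 9 libraries. The other 6 (COL6A5, COL9A3, COL19A1, COL20A1, COL26A1 and LOXHD1) had no count anywhere. The filter on low counts left 37 genes for MAT against CYST, 38 for MAT + COL against CYST and 37 for MAT + COL against MAT, 40 in all. None of the 18 genes tested in none of these comparisons exceeded 26 counts in a library.

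**Figure D1:**
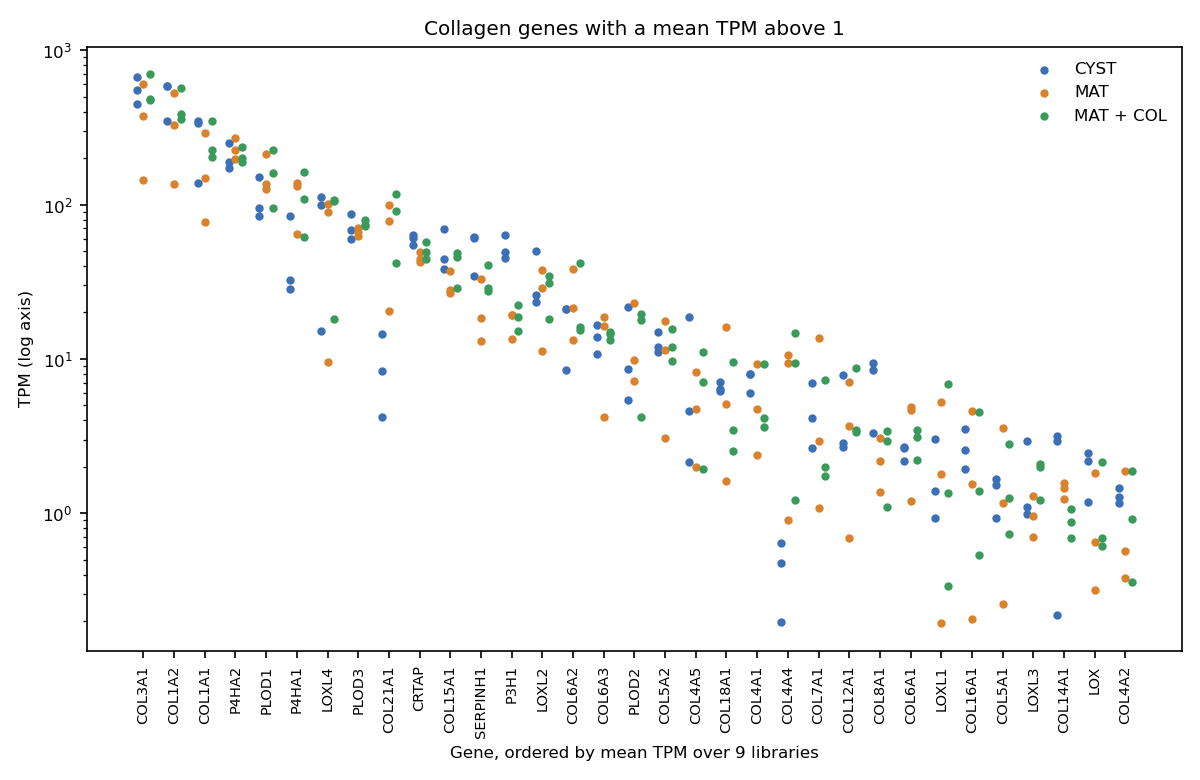
TPM (log axis) of the 33 genes with a mean above 1 TPM, ordered by their mean over 9 libraries, with 1 point per library coloured by group. COL3A1, COL1A2 and COL1A1 were highest, and the points of COL21A1, P3H1 and COL4A4 separated CYST from both EGF groups.

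Genes for collagens I and III dominated the chain RNA. COL3A1, the chain of collagen III, was at 449, 549.7 and 666 TPM in the CYST libraries, 375, 145 and 608 TPM in MAT, and 478, 481 and 697 TPM in MAT + COL. COL1A2, one of the chains of collagen I, was at 346, 585 and 585 TPM in CYST, 328, 135 and 529 TPM in MAT, and 356, 387 and 568 TPM in MAT + COL. COL1A1, the other chain of collagen I, was at 137, 338 and 350 TPM in CYST, 148, 76.7 and 290.2 TPM in MAT, and 204, 225 and 349 TPM in MAT + COL. The groups overlapped for all 3 genes, and MAT replicate 2 was the lowest library for each of them.

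Together, these 3 genes made up 66.8% to 92.8% of the TPM of all chains (median 86.2%), and the chain total ran from 534 TPM in MAT replicate 2 to 1830.4 TPM in MAT + COL replicate 3. The ratio of COL1A1 to COL1A2, which encode the chains of 1 trimer, stayed between 0.396 and 0.614. The enzymes and chaperones summed to 666 to 903 TPM, a narrower range than that of the chains.

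In MAT against CYST, edgeR's quasi-likelihood test passed 1 of the 37 genes tested at an adjusted p under 0.05, the prolyl 3-hydroxylase P3H1, beside 1.79% of all 12074 genes. With the replicate number as a block, 4 of the 37 passed, beside 10.6% of all genes: P3H1, SERPINH1 and COL8A1 fell, beside 5.67% of all genes, and COL21A1 rose, beside 4.9%. The share of the 37 genes that passed (10.8%) was close to the background. The TPM values of the groups did not overlap for 7 of the 37 genes (18.9%), beside 23.7% of all genes. Of these, COL4A4 and COL21A1 were higher in MAT, beside 11.9% of all genes, and COL8A1, COL15A1, P3H1, SERPINH1 and CRTAP were lower, beside 11.8%.

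P3H1 (ENSBTAG00000017382, chromosome 3 from 103472158 to 103491713 of ARS-UCD2.0, the build of all positions given here) adds a hydroxyl group to selected prolines. It was at 45.2, 64.0 and 49.6 TPM in CYST, 19.3, 13.5 and 19.1 TPM in MAT, and 18.6, 22.2 and 15.3 TPM in MAT + COL. Every CYST library was above every library with EGF. The MAT mean of 17.3 ± 3.30 TPM (SD, n = 3) was 3.06-fold below the CYST mean of 52.9 ± 9.80 TPM (SD, n = 3). In edgeR its Log2FC was -1.62 with a standard error (SE) of 0.24 and an adjusted p = 0.0285.

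Of the 43 genes above the filter over 9 libraries, P3H1 had the largest share of its variation between groups. The group accounted for 91.3% of its sum of squares over 9 libraries on the log2 CPM scale (counts scaled to library size), and the replicate number for 0.787%. Its call in MAT against CYST was lost when CYST replicate 1 or 2 or MAT replicate 1 or 2 was left out (adjusted p from edgeR between 0.0634 and 0.128), while the Log2FC stayed between -1.73 and -1.46. In the fits that lost the call, only 0.0408% to 0.26% of all genes passed, beside 1.79% with all libraries. With the block it passed with all libraries (Log2FC -1.63, adjusted p = 0.00961 from edgeR) and was lost without the libraries numbered 1 (Log2FC -1.80, adjusted p = 0.0748 from edgeR).

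CRTAP, the partner of P3H1 without enzyme activity of its own, was at 63.2, 60.6 and 54.3 TPM in CYST, 49.0, 42.5 and 44.1 TPM in MAT, and 57.0, 49.3 and 44.3 TPM in MAT + COL. All MAT libraries were below all CYST libraries, and the Log2FC was -0.41 (SE 0.17), which did not pass (adjusted p = 0.227 from edgeR). PPIB, the cyclophilin of the same complex, had a Log2FC of -0.49 (SE 0.16, adjusted p = 0.136 from edgeR). P3H1 had 0.715 to 1.06 TPM per TPM of CRTAP in CYST and 0.318 to 0.451 in the 6 libraries with EGF, without overlap.

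SERPINH1 (ENSBTAG00000001027, chromosome 15 from 54738102 to 54748399) was at 34.5, 61.4 and 60.7 TPM in CYST, 18.5, 13.1 and 32.8 TPM in MAT, and 28.6, 27.7 and 40.3 TPM in MAT + COL. The MAT libraries were below the CYST libraries, and MAT + COL overlapped with both. The MAT mean was 2.43-fold below CYST. The Log2FC of -1.30 (SE 0.40) did not pass without the block (adjusted p = 0.124 from edgeR), and that of -1.35 (SE 0.26) passed with it (adjusted p = 0.0226 from edgeR). Without the libraries numbered 2 the blocked Log2FC was -0.97 (adjusted p = 0.0514 from edgeR), and without those numbered 1 it was -1.54 (adjusted p = 0.118 from edgeR).

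**Figure D2:**
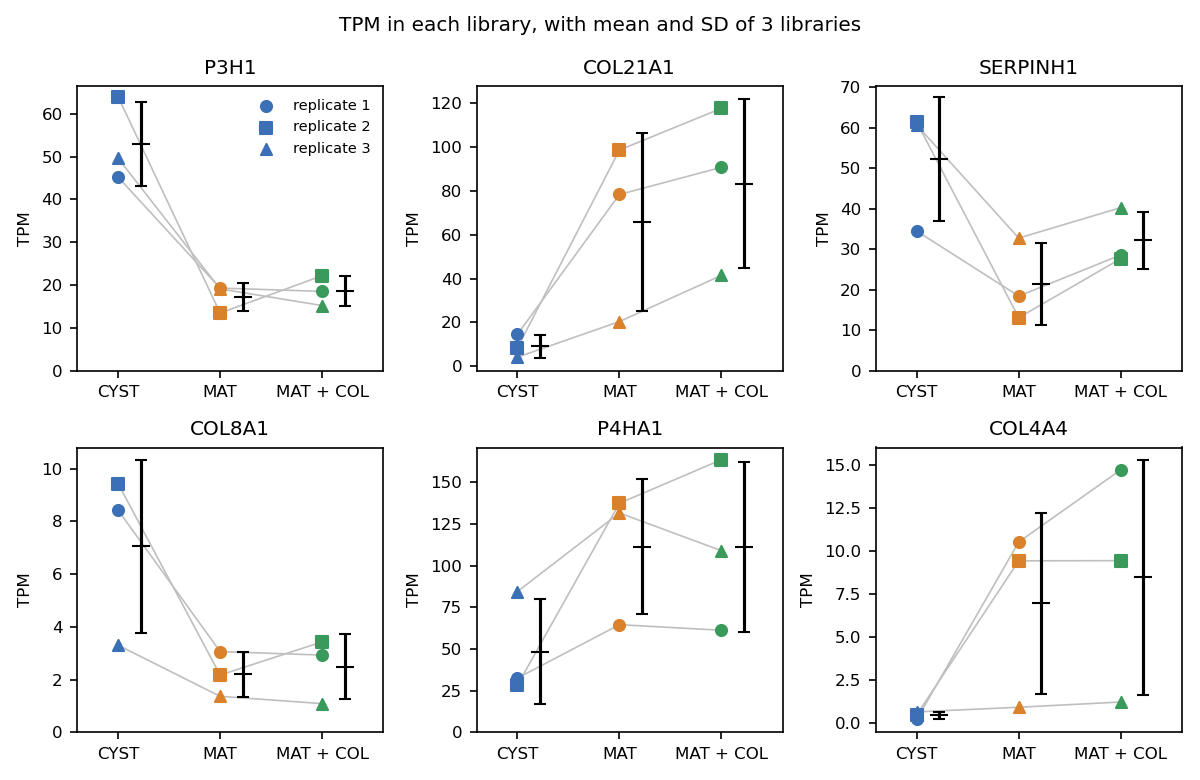
TPM in each of the 9 libraries (points, with a shape for each replicate number, and lines joining equal numbers) for 6 genes, with the mean and SD of 3 libraries beside each group. P3H1 in MAT sat between 13.5 and 19.3 TPM, below all CYST libraries, and COL21A1 in MAT sat between 20.4 and 98.7 TPM, above all of them.

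The prolyl 4-hydroxylase catalytic subunits differed in level. P4HA2 was at 251, 174 and 189 TPM in CYST, 268, 224 and 196 TPM in MAT, and 201, 237 and 189 TPM in MAT + COL, with overlap among all groups. P4HA1 was at 32.5, 28.4 and 84.5 TPM in CYST, 64.6, 137 and 132 TPM in MAT, and 61.3, 164 and 109 TPM in MAT + COL. P4HA3 had at most 14 counts in a library and was tested in MAT + COL against CYST only.

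P4HA1 was higher in MAT than in CYST within each replicate number, by 1.98-fold, 4.84-fold and 1.56-fold, although CYST replicate 3 lay above MAT replicate 1. Such agreement was common. In every same-numbered pair, 25.1% of all 12074 genes were higher and 24.7% lower, beside 13.5% and 24.3% of the 37 collagen genes. The P4HA1 Log2FC of 1.11 (SE 0.53) did not pass (adjusted p = 0.289 from edgeR), nor did that of 1.28 (SE 0.34) with the block (adjusted p = 0.0543 from edgeR). It passed when CYST replicate 3 was left out, with a Log2FC of 1.97 (adjusted p = 0.0489 from edgeR).

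The lysyl hydroxylases did not pass in any comparison of all 6 libraries. PLOD1 was at 94.5, 84.2 and 151 TPM in CYST, 137, 127 and 213 TPM in MAT, and 95.4, 161 and 226 TPM in MAT + COL. PLOD3, which also adds sugars to hydroxylysine, was at 60.3, 86.5 and 68.0 TPM in CYST, 66.1, 70.4 and 62.8 TPM in MAT, and 72.1, 79.2 and 73.9 TPM in MAT + COL. PLOD2, which acts on the telopeptides, was lower and more variable, at 8.61, 5.39 and 21.7 TPM in CYST, 7.20, 9.90 and 23.0 TPM in MAT, and 4.19, 19.6 and 17.9 TPM in MAT + COL.

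PLOD1 was 1.41-fold to 1.51-fold higher in MAT than in CYST within each replicate number, yet the group values overlapped. Its Log2FC was 0.48 (SE 0.36, adjusted p = 0.496 from edgeR) without the block and 0.53 (SE 0.16, adjusted p = 0.0793 from edgeR) with it. PLOD3 varied little over the 9 libraries, with a highest value 1.44-fold above the lowest.

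Among the lysyl oxidases, LOXL4 was the most abundant in the libraries numbered 1 and 2, and LOXL2 was in those numbered 3. LOXL4 was at 99.5, 112 and 15.1 TPM in CYST, 89.5, 100.3 and 9.55 TPM in MAT, and 106, 105 and 18.0 TPM in MAT + COL. In every group the library numbered 3 was far below the other two. LOXL2 was at 25.9, 23.2 and 50.3 TPM in CYST, 28.6, 11.2 and 37.8 TPM in MAT, and 18.0, 34.5 and 31.2 TPM in MAT + COL.

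LOX itself was low, at 2.19, 1.18 and 2.45 TPM in CYST, 0.655, 0.319 and 1.83 TPM in MAT, and 0.609, 0.689 and 2.14 TPM in MAT + COL. LOXL1 was at 3.01, 0.929 and 1.40 TPM in CYST, 1.80, 0.193 and 5.22 TPM in MAT, and 1.35, 0.339 and 6.83 TPM in MAT + COL. LOXL3 lay between 0.702 and 2.95 TPM over all libraries. The groups overlapped for all 5 lysyl oxidases, and none passed the test in any comparison of all 6 libraries.

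COL21A1 (ENSBTAG00000033515, chromosome 23 from 4026788 to 4261679) encodes a fibril-associated collagen with interrupted triple helices. It was at 14.6, 8.40 and 4.17 TPM in CYST, 78.4, 98.7 and 20.4 TPM in MAT, and 90.8, 118 and 41.5 TPM in MAT + COL. All 6 libraries with EGF were above all CYST libraries. Within replicate numbers, MAT was 5.38-fold, 11.7-fold and 4.89-fold above CYST.

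The COL21A1 Log2FC in MAT against CYST was 2.88 (SE 0.60), which missed the threshold without the block (adjusted p = 0.0559 from edgeR). With the block it was 2.76 (SE 0.31) and passed (adjusted p = 0.0048 from edgeR). Leaving out the libraries numbered 1 ended the blocked call (Log2FC 2.96, adjusted p = 0.0625 from edgeR), and leaving out those numbered 2 or 3 did not.

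COL8A1 (ENSBTAG00000013662, chromosome 1 from 43902238 to 44073695) encodes a short chain that assembles into networks around vessels and in other basement membrane zones. It was at 8.42, 9.43 and 3.31 TPM in CYST, 3.06, 2.18 and 1.37 TPM in MAT, and 2.93, 3.43 and 1.09 TPM in MAT + COL. The MAT values were all below CYST, while MAT + COL replicate 2 lay above CYST replicate 3. The MAT mean was 3.20-fold below CYST, with a Log2FC of -1.66 (SE 0.44, adjusted p = 0.0874 from edgeR) without the block and -1.64 (SE 0.31, adjusted p = 0.0216 from edgeR) with it. The blocked call was lost without the libraries numbered 1 (adjusted p = 0.143 from edgeR) or 2 (adjusted p = 0.108 from edgeR).

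The collagen IV chains, the protein of which is a main part of Matrigel, were low in RNA. COL4A1 was at 8.03, 7.98 and 6.02 TPM in CYST, 4.75, 2.40 and 9.32 TPM in MAT, and 3.62, 4.13 and 9.23 TPM in MAT + COL. COL4A2, its partner in the common trimer, was at 1.27, 1.16 and 1.45 TPM in CYST, 0.381, 0.571 and 1.88 TPM in MAT, and 0.359, 0.921 and 1.87 TPM in MAT + COL. COL4A5 was at 4.62, 18.8 and 2.15 TPM in CYST, 4.72, 8.22 and 2.00 TPM in MAT, and 11.1, 7.06 and 1.94 TPM in MAT + COL. The groups overlapped for these 3 chains, and none passed with all 6 libraries. Without the libraries numbered 3, the blocked COL4A1 Log2FC passed in MAT (-1.18, adjusted p = 0.0422 from edgeR) and in MAT + COL (-1.06, adjusted p = 0.0291 from edgeR) against CYST. In these fits 12 of 38 and 12 of 39 collagen genes passed, beside 15.3% and 19.1% of all genes.

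COL4A4 and COL4A3 encode chains of a second collagen IV network, best known from kidney. COL4A4 (ENSBTAG00000021310, chromosome 2 from 115161378 to 115317902) was at 0.197, 0.474 and 0.638 TPM in CYST, 10.5, 9.43 and 0.909 TPM in MAT, and 14.7, 9.44 and 1.21 TPM in MAT + COL. COL4A3 was at 0.162, 0 and 0 TPM in CYST, 2.42, 0.453 and 0.104 TPM in MAT, and 1.62, 0.172 and 0 TPM in MAT + COL. COL4A4 did not overlap between CYST and either EGF group, but the libraries numbered 3 stood 1.42-fold (MAT) and 1.90-fold (MAT + COL) above CYST replicate 3, whereas the others stood 19.9-fold to 74.6-fold above theirs.

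The COL4A4 counts behind these values were 6, 28 and 25 in CYST against 249, 595 and 43 in MAT. Its Log2FC in MAT against CYST was 3.89 (SE 0.90), which did not pass (adjusted p = 0.0670 from edgeR), nor with the block (3.53, SE 0.96, adjusted p = 0.0568 from edgeR). It passed in DESeq2 (adjusted p = 1.43e-05) and in edgeR without MAT replicate 3 (adjusted p = 0.0315). COL4A6 had at most 14 counts in a library and was tested in none of the 3 comparisons.

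Several collagen genes lie side by side in the genome. COL4A1 and COL4A2 are separated by 295 bases on chromosome 12, COL4A4 and COL4A3 overlap by 89 bases on chromosome 2, and COL4A6 and COL4A5 overlap by 669 bases on chromosome X. The authors' counting is not stated to use strand, so reads from the shared bases cannot be assigned to one gene of an overlapping pair.

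The remaining chains were described by family. Of the 8 fibrillar genes tested in MAT against CYST, 5 had a negative Log2FC without the block, 7 with it, and none passed; the Log2FC ran from -0.71 to 0.31 without the block. COL5A2, a chain of the collagen V that helps start fibrils, lay between 3.05 and 17.6 TPM. Among the beaded filament chains, COL6A2 and COL6A3 reached 41.8 and 18.8 TPM. COL15A1, a proteoglycan collagen of the basement membrane zone, was at 44.4, 69.6 and 38.0 TPM in CYST, 28.1, 26.8 and 37.3 TPM in MAT, and 28.7, 48.3 and 46.0 TPM in MAT + COL.

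COL15A1 in MAT lay just below all CYST libraries, and its Log2FC of -0.70 (SE 0.24) did not pass (adjusted p = 0.145 from edgeR). COL18A1, the source of endostatin, lay between 1.61 and 16.2 TPM, and COL7A1, the chain of anchoring fibrils, between 1.07 and 13.7 TPM, with MAT replicates 2 and 3 at the ends of both ranges.

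The collagen I and III chains did not pass in MAT against CYST. Their Log2FC without the block was -0.71 (SE 0.55) for COL1A1, -0.63 (SE 0.48) for COL1A2 and -0.59 (SE 0.49) for COL3A1. The median Log2FC without the block was -0.23 over the 24 chains tested and -0.14 over the 13 enzymes and chaperones, beside 0.01 over all genes. With the block it was -0.46 over the chains and -0.32 over the enzymes and chaperones, beside 0.005 over all genes. The median of the chains without the block moved to -1.08 when MAT replicate 3 was left out and to 0.19 when MAT replicate 2 was left out.

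**Figure D3:**
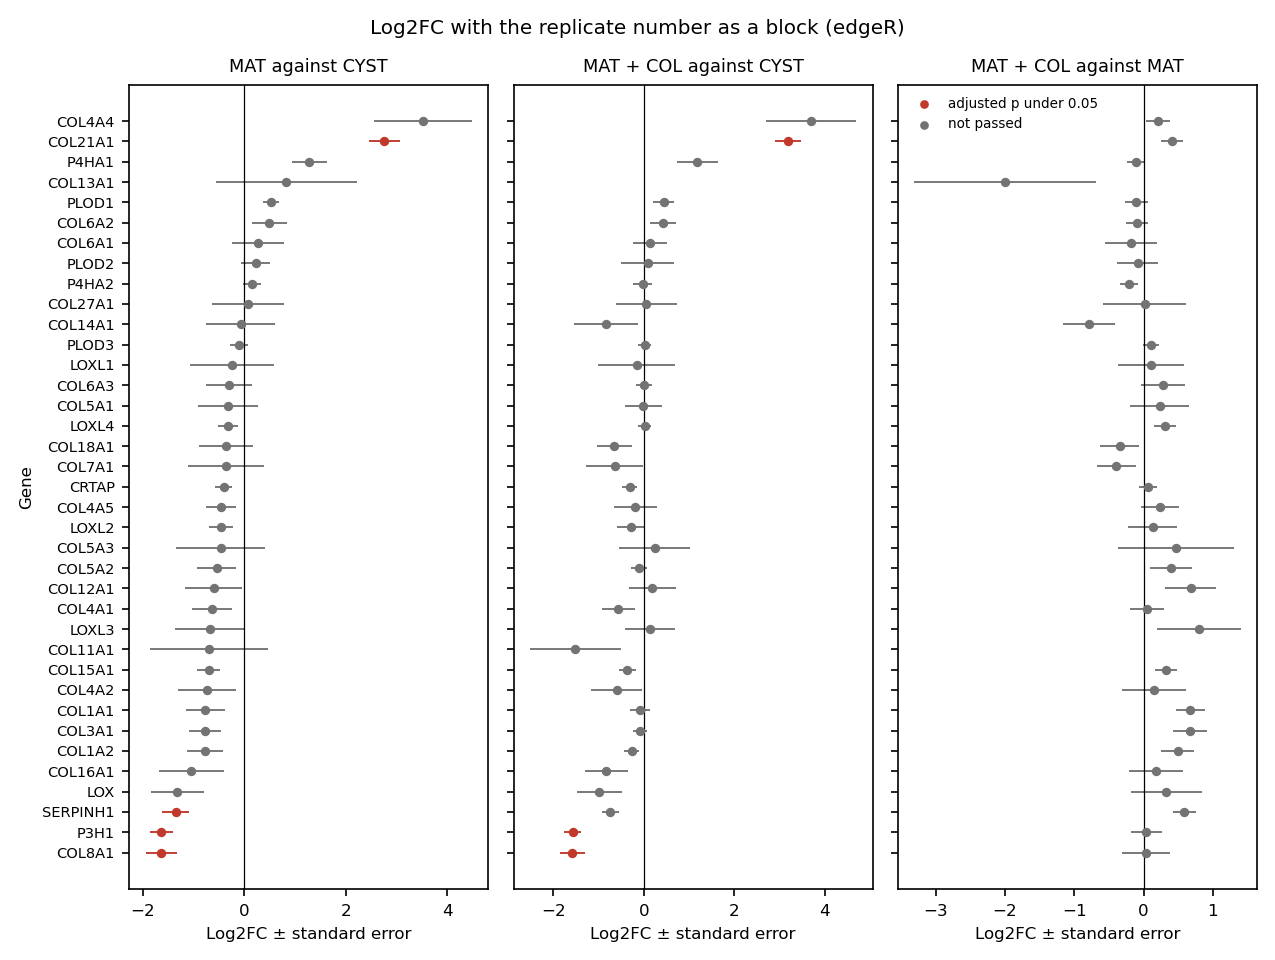
Log2FC (points) and standard error (bars) from edgeR with the replicate number as a block, for the 37 genes tested in MAT against CYST, in each of 3 comparisons; a gene without a point was not tested there. Red points passed an adjusted p of 0.05: COL21A1, P3H1, COL8A1 and SERPINH1 in MAT against CYST, the first 3 of these in MAT + COL against CYST, and none in MAT + COL against MAT.

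MAT + COL against CYST differed in both EGF and collagen I, whose parts cannot be told apart in it, and it used the same CYST libraries as MAT against CYST. P3H1 fell and COL21A1 rose, 2 of the 38 genes tested, beside 1.49% of 12509 genes. The P3H1 Log2FC was -1.57 (SE 0.21, adjusted p = 0.0308 from edgeR), and the COL21A1 Log2FC was 3.17 (SE 0.49, adjusted p = 0.0377 from edgeR). The COL21A1 mean of 83.3 ± 38.7 TPM (SD, n = 3) was 9.21-fold above the CYST mean of 9.05 ± 5.24 TPM (SD, n = 3).

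Both calls were lost in most fits without 1 library. Leaving out any library other than MAT + COL replicate 3 raised the adjusted p to between 0.0513 and 0.123 for P3H1 and between 0.0561 and 0.135 for COL21A1 in edgeR. In those fits only 0.0234% to 0.877% of all genes passed, beside 1.49% with all libraries. Without MAT + COL replicate 3, where 1.46% of all genes passed, the P3H1 and COL21A1 calls held. COL4A4 also passed there (Log2FC 4.61, adjusted p = 0.0336 from edgeR). With the replicate block, COL8A1 (Log2FC -1.58, SE 0.28, adjusted p = 0.0362 from edgeR) was added to the calls, giving 3 of 38 beside 5.26% of all genes. The blocked COL8A1 call was lost without the libraries numbered 1 (adjusted p = 0.131 from edgeR) or 2 (adjusted p = 0.168 from edgeR), and that of P3H1 without those numbered 2 (Log2FC -1.64, adjusted p = 0.0665 from edgeR).

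SERPINH1 in MAT + COL stood 1.62-fold below CYST, and its Log2FC of -0.77 (SE 0.32) did not pass (adjusted p = 0.215 from edgeR), nor with the block (-0.74, adjusted p = 0.0702 from edgeR). The groups did not overlap for 3 of the 38 genes, COL4A4, COL21A1 and P3H1, which is 7.89% beside 24.7% of all genes. The median Log2FC of the 24 chains tested was -0.22 without the block and -0.15 with it, beside 0.04 over all genes in both fits.

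MAT + COL against MAT asked what collagen I added to EGF cultures, and none of the 37 genes tested passed in edgeR, beside 0 of all 12470 genes. In DESeq2 none of the 50 tested passed, beside 0 of all 15582 genes. At an unadjusted p under 0.05, edgeR passed 0 of the 37 and 0.409% of all genes without the block, and 4 of the 37 and 4.96% of all genes with it. All 4 had a positive Log2FC, beside 2.16% of all genes in that direction: SERPINH1 (Log2FC 0.59, SE 0.16), COL1A1 (0.68, SE 0.21), COL3A1 (0.67, SE 0.25) and COL21A1 (0.41, SE 0.16). Their adjusted p from edgeR was 0.955.

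The pair numbered 2 held the largest of the COL1A1, COL3A1 and SERPINH1 ratios. MAT + COL was 2.93-fold above MAT for COL1A1, 3.32-fold for COL3A1 and 2.11-fold for SERPINH1 in that pair, against 1.15-fold to 1.55-fold in the others. Without the libraries numbered 2, the blocked Log2FC was 0.28 for COL1A1, 0.19 for COL3A1 and 0.37 for SERPINH1. Without those numbered 3, COL1A1 (0.92, adjusted p = 0.0229 from edgeR) and COL3A1 (0.95, adjusted p = 0.0317 from edgeR) passed.

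Groups did not overlap between MAT + COL and MAT for 2 of the 37 genes, 5.41% beside 3.57% of all genes. These were PLOD3, which was higher in MAT + COL, and COL14A1, a fibril-associated collagen that was lower. COL14A1 was at 1.46, 1.57 and 1.23 TPM in MAT and 1.06, 0.874 and 0.691 TPM in MAT + COL. The P3H1 mean in MAT + COL was 1.08-fold that in MAT, with overlap.

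MAT replicate 2 stood apart for these genes. It held the lowest TPM of the 9 libraries for 20 of the 43 genes above the filter over all libraries, 46.5% of them beside 8.38% of all genes. Of the 7 stromal markers, 5 (DCN, LUM, THY1, PDGFRA and FBN1) were also lowest there, with DCN at 236 TPM, LUM at 142 TPM and THY1 at 17.0 TPM, against lowest values elsewhere of 453, 291 and 34.3 TPM. VIM, at 452 TPM there, was close to its mean of 454 TPM over the 9 libraries, and PDGFRB was lowest in MAT replicate 1. The endothelial markers CDH5, at 0, PECAM1 and TEK were also lowest in MAT replicate 2, whereas KDR and VWF were not. KDR in MAT replicate 2 lay above its mean over the 9 libraries and above all CYST libraries. EPCAM was highest in that library, at 764 TPM.

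Across the groups, the stromal list summed to 1335, 1637 and 3279.8 TPM in CYST, 1284, 853 and 2376 TPM in MAT, and 1197, 1327 and 2704 TPM in MAT + COL. None of its 7 genes passed without the block. With it, DCN fell in MAT against CYST (Log2FC -1.12, SE 0.23, adjusted p = 0.0252 from edgeR) and VIM, which gland cells in culture can also express, rose (Log2FC 1.05, SE 0.16, adjusted p = 0.0125 from edgeR). In that fit 5.67% of all genes fell and 4.9% rose. DCN was also the only 1 of 4 fibril-associated proteoglycans (BGN, DCN, FMOD and LUM) to pass. Of the 6 epithelial markers, 3 rose in the same fit, beside 4.9% of all genes: EPCAM (Log2FC 0.70, SE 0.17), KRT8 (0.88, SE 0.19) and KRT19 (1.09, SE 0.24). CDH1, KRT7 and KRT18 did not pass, and KRT18 was lower in MAT in the pairs numbered 1 and 2 (0.69-fold and 0.70-fold). None of the 6 passed without the block. In MAT + COL against CYST with the block, 1 stromal marker, FBN1, fell (Log2FC -1.01, SE 0.21, adjusted p = 0.0489 from edgeR), beside 2.58% of all genes. There 1 epithelial marker, KRT19, rose (Log2FC 1.01, SE 0.16, adjusted p = 0.0322 from edgeR), beside 2.68% of all genes.

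The 5 smooth muscle and pericyte markers (ACTA2, MYH11, DES, CNN1 and RGS5) summed to 85.1, 84.3 and 44.5 TPM in CYST, 48.8, 24.6 and 44.5 TPM in MAT, and 43.0, 49.8 and 43.5 TPM in MAT + COL. ACTA2, smooth muscle actin, was at 66.0, 63.4 and 33.1 TPM in CYST, 36.3, 10.9 and 31.3 TPM in MAT, and 30.9, 29.7 and 30.9 TPM in MAT + COL. It was lowest in MAT replicate 2, and all libraries with EGF other than MAT replicate 1 lay below all CYST libraries. CNN1 and RGS5 were also lowest in MAT replicate 2, whereas DES and MYH11 were not. MYH11 was at 10.4 TPM there, above its mean of 8.22 TPM over 9 libraries, and its MAT mean was 1.03-fold its CYST mean. None of the 5 passed in any comparison with or without the block, and their median Log2FC with it in MAT against CYST was -0.93. CD68 was lower in MAT than in CYST within each replicate number, as were 24.7% of all genes. Its Log2FC of -1.23 (SE 0.55) did not pass (adjusted p = 0.255 from edgeR). The part that RNA of stromal, muscle, immune or epithelial cells had in the collagen values was not tested.

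**Figure D4:**
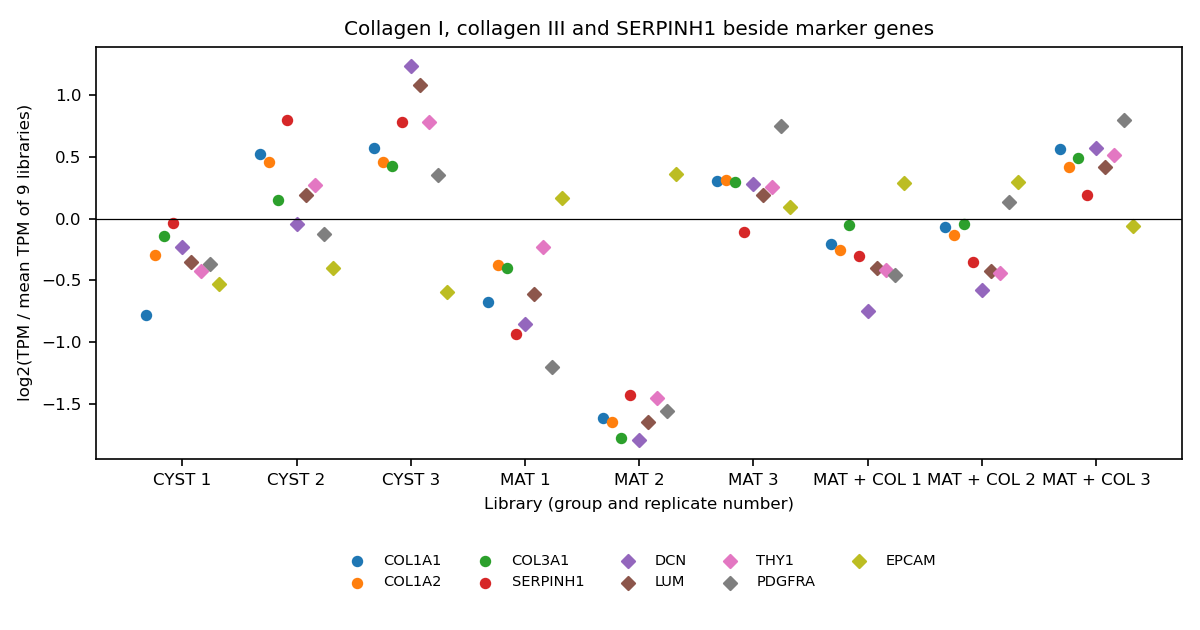
Log2 of TPM over the mean TPM of 9 libraries, for collagen I and III chains and SERPINH1 (circles) and for stromal markers and EPCAM (diamonds), by library. In MAT replicate 2 the collagen genes, SERPINH1 and the stromal markers plotted (DCN, LUM, THY1 and PDGFRA) lay far below 0, with COL3A1 at 145 TPM and DCN at 236 TPM, while EPCAM was at its highest.

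The blocked calls in MAT against CYST depended on which libraries were left out. Without those numbered 1, none of 38 genes passed, beside 0.289% of all genes. Without those numbered 2, P3H1 and COL21A1 passed, 2 of 37 beside 5.11% of all genes, where P3H1 had a Log2FC of -1.38 (adjusted p = 0.0200 from edgeR) and COL21A1 one of 2.29 (adjusted p = 0.000753 from edgeR). Without those numbered 3, 12 of 38 passed, beside 15.3% of all genes: the 4 genes called with all libraries and COL4A1, COL4A3, COL4A4, COL7A1, COL12A1, COL15A1, PLOD1 and P4HA1. In MAT + COL against CYST, 12 of 39 then passed, beside 19.1% of all genes. Without the block, leaving out MAT replicate 2 gave P3H1 a Log2FC of -1.46 (adjusted p = 0.0634 from edgeR).

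For most of these genes the replicate number went with more of the variation than the group did. Of the 43 genes above the filter over 9 libraries, 31 had the larger share of their sum of squares between replicate numbers, 72.1% of them beside 51.5% of 12858 genes. The median share was 12.0% between groups and 48.4% between replicate numbers, beside 29.9% and 32.0% over all genes. LOXL4 was at the far end, with 97.0% between replicate numbers and 1.35% between groups.

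Tested over 9 libraries with the group in the model, the replicate number passed for 8 of the 43 genes, 18.6% beside 9.92% of all genes. LOXL4 in libraries numbered 3 had a log2 difference of -2.67 (SE 0.17, adjusted p = 0.00026 from edgeR) from the mean of numbers 1 and 2. COL21A1 (-1.43), COL4A5 (-1.87) and COL4A3 (-4.05) were also lower in libraries numbered 3, and PLOD1 (0.96), COL6A2 (1.25), COL5A1 (1.79) and COL16A1 (2.20) were higher. Whether the numbers stand for animals, days or another source is not given in the labels. The paper reports that MAT and MAT + COL samples clustered more by individual than by added collagen I. Its text does not say which libraries share an individual.

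**Figure D5:**
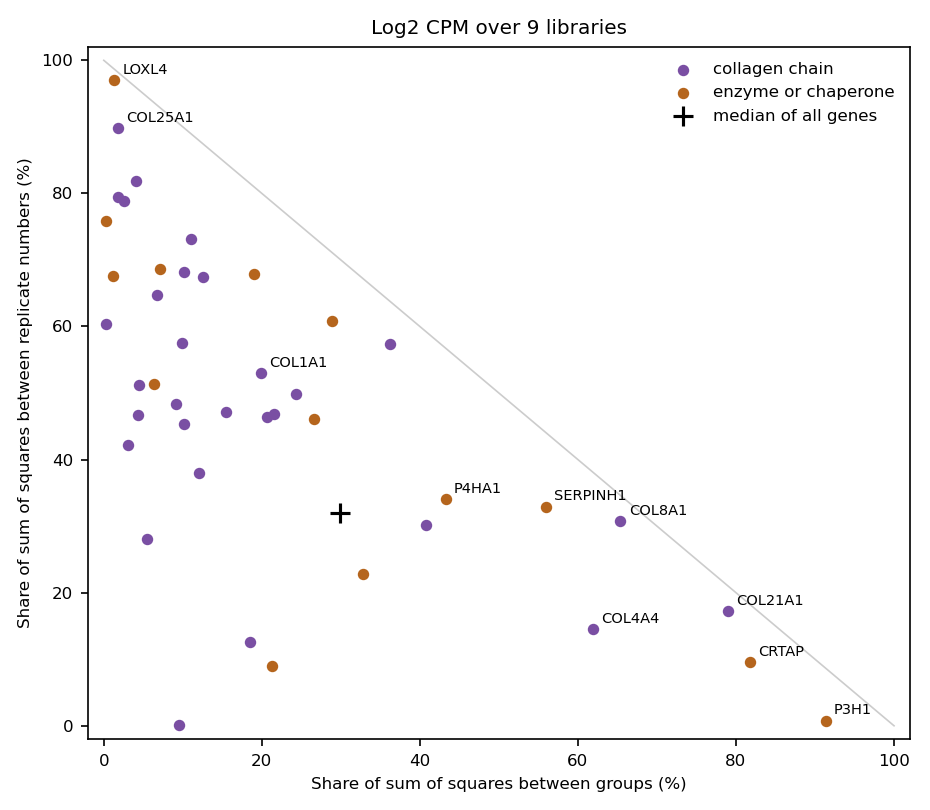
Share of each gene's sum of squares on the log2 CPM scale that lay between groups (x axis, %) and between replicate numbers (y axis, %), for 43 genes over 9 libraries; the line marks a total of 100% and the cross the median of all genes. P3H1 (91.3% between groups) and LOXL4 (97.0% between replicate numbers) were at opposite ends.

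Other genes of collagen assembly were taken from fixed lists. Of 11 folding, hydroxylation and glycosylation genes beyond the members, 10 were tested, and none of these passed in any comparison with or without the block. Of 8 procollagen processing genes, 6 were tested (5 in MAT + COL against CYST), and none of these passed, nor did any of 9 secretion genes, 3 basement membrane linkers or the collagen IV cross-linking enzyme PXDN, all of which were tested. P4HB, the shared subunit of the prolyl 4-hydroxylases, was the most abundant of them at 1558, 1719 and 2559 TPM in CYST, 2712, 2639 and 3896 TPM in MAT, and 2224, 2774 and 4118 TPM in MAT + COL. It was higher in MAT than in CYST within each replicate number, as were 25.1% of all genes, with a Log2FC of 0.62 (SE 0.32, adjusted p = 0.322 from edgeR). TLL1, a procollagen protease, had no count in any library.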

How the data were processed

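Total RNA from 9 cultures (3 groups of 3, harvested on day 5) was made into libraries with an amplifying SMART-Seq kit and sequenced in pairs. The authors aligned the reads to ARS-UCD 2.0 in CLC Genomics Workbench 25.0.1 and deposited whole-number counts per gene, not normalized. The authors also deposited TPM values, which sum to the same total in each library and correct for gene length. The annotation release and the strand setting are not given in the sources used here.

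The members, the lists of other collagen genes and markers, and the tests were chosen with earlier results of these data known. Libraries were grouped and given replicate numbers by their GEO titles. The deposited column names number some libraries otherwise, and the block and the same-numbered pairs follow the titles. Counts were tested with edgeR 4.0.16 (R 4.3.3) after filterByExpr with a minimum count of 10 and TMM scaling, using the quasi-likelihood test on the 6 libraries of each comparison and Benjamini-Hochberg adjustment over all genes tested; called means an adjusted p under 0.05. Standard errors are the absolute Log2FC over the root of F. The script was tested on simulated counts. Values in every library are given for members called in any comparison of all 6 libraries, the 3 most abundant, the collagen I, III and IV chains, and the enzymes. Of these, LOXL3 is given by its range, and P4HA3 and COL4A6 by their highest count. COL15A1, and COL14A1 in MAT and MAT + COL, are also given by library. Other members are given by ranges and counts.

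Libraries with the same replicate number deviated together from their group means (correlation over genes 0.329, 0.437 and 0.396 in MAT with CYST, 0.278, 0.350 and 0.347 in MAT + COL with CYST, and 0.471, 0.613 and 0.687 in MAT + COL with MAT), so blocked values stand beside results they change. Alternatives were RLE scaling, no filter, DESeq2 1.42.0, all 9 libraries in 1 fit, limma 3.58.1 on log2(TPM + 1) or log2(TPM + 0.1), the study's Log2FC and TPM criteria, and leaving out each library. Leaving out a replicate number under the block, the block with those criteria and the test of the replicate number were chosen after seeing the data. Shares of variation used log2 CPM with a prior count of 2. Depths of 6568968 to 17948600 counts limit what low genes can show. The kit's counts carry no molecular identifiers. Positions come from the deposited table.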

Additional observations from a re-analysis of the deposited data

How the results depend on the processing

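The number of collagen genes called in MAT against CYST, 1 as reported, was 2 without the count filter (beside 1.89% of all genes), 6 of 43 in DESeq2 (9.33%), 4 with the replicate block (10.6%), 2 with all 9 libraries in 1 fit (4.51%) and 4 with the replicate block and the study's Log2FC and TPM criteria (6.01%). It ranged from 0 to 3 when single libraries were left out, beside 0.0408% to 2.14% of all genes. The 3, of 37 tested, came without MAT replicate 3, beside 1%. Under the replicate block with a replicate number left out, the number ranged from 0 to 12. The 12, of 38 tested, came without replicate 3, beside 15.3% of all genes. In MAT + COL against CYST, 2 as reported, the number was 4 of 36 in DESeq2 (beside 11.6% of all genes) and 3 with the replicate block (5.26%). It was 0 to 3 with single libraries left out, beside 0.0234% to 1.46% of all genes. The 3, of 40 tested, came without MAT + COL replicate 3, beside 1.46%. Under the block with a replicate number left out, the number was 1 to 12. The 12, of 39 tested, came without replicate 3, beside 19.1% of all genes. In MAT + COL against MAT, 0 as reported, the block without replicate 3 gave 2 of 38 beside 0.368% of all genes, and the others gave 0. RLE scaling and both limma fits left these counts at 1, 2 and 0. The cause of these differences was not tested.

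The median Log2FC of the chains ran from -1.08 to 0.19 in MAT against CYST, from -0.56 to 0.03 in MAT + COL against CYST and from -0.38 to 0.59 in MAT + COL against MAT as libraries were left out; the value of -1.08 came without MAT replicate 3. The COL21A1 Log2FC in MAT + COL against MAT changed sign without MAT replicate 3 (-0.15) and without MAT + COL replicate 2 (-0.08), in a range up to 0.69. Among the members, the replicate block with all libraries changed no call other than those of COL21A1, COL8A1 and SERPINH1 in MAT against CYST and of COL8A1 in MAT + COL against CYST. With 3 libraries a group and depths from 6568968 counts, 18 genes fell below the count filter in all 3 comparisons, and a p that misses the threshold does not show equal levels.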
